A study of Mus musculus with 4 samples.

Results

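The genes described here are 10 immune checkpoint and costimulatory genes of the mouse liver: the ligand genes Cd274, Pdcd1lg2, Cd80 and Cd86, and the receptor genes Pdcd1, Ctla4, Lag3, Havcr2, Tigit and Icos. They were chosen by symbol, with earlier results of these data known, and all 10 were found among the 24346 gene symbols listed for each sample. RNA sequencing had been performed on liver of male C57BL/6 mice, 8 weeks old when the diets began. Every mouse received a NASH diet for 3 weeks, a diet of high fat, cholesterol and sucrose with bile salt that induces steatohepatitis. The oxysterol 7-ketocholesterol (7KC), which forms when cholesterol is oxidized, was mixed into the diet of the 7KC group (n = 2 samples) and left out in the control group (n = 2 samples). The labels of these samples name no imiquimod, the skin irritant used elsewhere in the study. Per the study, the livers sequenced were collected before any imiquimod was applied. No group on a normal diet was analysed here, so the control livers are themselves steatohepatitic. The labels do not say whether the samples of a group came from separate mice, so p-values measure the spread between these samples.

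Naive T cells respond fully to antigen only with a second signal, classically delivered when CD80 or CD86 on an antigen-presenting cell binds CD28. Inhibitory receptors limit that response: CTLA-4 competes with CD28 for CD80 and CD86, and PD-1, encoded by Pdcd1, is engaged by PD-L1 (Cd274) and PD-L2 (Pdcd1lg2). Interferon-γ is a classical inducer of PD-L1, acting in part through IRF1, and PD-L1 in the liver is carried by Kupffer cells, endothelial cells and hepatocytes. LAG-3, TIM-3 (Havcr2) and TIGIT are further inhibitory receptors of activated T cells, whereas ICOS is a costimulatory receptor of activated T cells.

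The values are FPKM, the fragments mapped to a gene scaled to the length of its exons and to the mapped fragments of the sample. The scaling to length lets levels be compared between genes of a sample. Between samples the values do not add to the same total: the sums were 685028 and 671235 in the control samples and 619828 and 557138 in the 7KC samples. Differences between samples therefore depend in part on the scaling. The depth recovered from the steps between low values lay between 13700000 and 17200000 mapped reads, with control replicate 1 deepest. This depth holds if FPKM was scaled to the mapped reads of a sample. Hepatocyte RNA dominated all 4 samples, with Alb, the gene of serum albumin, between 18988 and 41547 FPKM. Ptprc, the gene of the leukocyte antigen CD45, was at 8.47 and 5.65 FPKM in the control samples and at 15.5 and 20.6 FPKM in the 7KC samples. Because the RNA came from whole liver, a change in the number of cells of a type and a change in RNA per cell cannot be told apart in any result below. The cell type that carried a change cannot be told either.

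The comparison addressed checkpoint expression with and without 7KC in the NASH diet. Every member was higher in both 7KC samples than in either control sample. Cd274 rose about 5-fold and was the only member to pass the threshold over all genes, an adjusted p under 0.05 in limma. The test covered the 12299 genes whose mean reached 0.5 FPKM, and log2 differences are on the scale of log2(FPKM + 0.5), which understates the change of low genes. Of these genes, 0.48% were called higher and 0.0244% were called lower, against 1 and 0 of the 8 tested members. An unadjusted p under 0.05 in the higher direction was found for 12% of the genes and for 6 of the 8 tested members. Pdcd1lg2 and Ctla4 had means of 0.485 and 0.455 FPKM and were below this filter. Pdcd1, with a control mean of 0.455 FPKM, reached it only through its 7KC samples. In a second fit whose filter was a mean of 0.1 FPKM, 14323 genes were tested, all 10 members among them, with 0.342% called higher and 0.014% lower. Non-overlapping values with 7KC on top were seen in 25.1% of the genes of the first fit and 8 of its 8 members, and in 26.2% of the genes of the second fit and 10 of its 10 members. The opposite order was seen in 27.4% of the genes of the first fit and in 0 members. The median log2 difference was 0.79 for the 8 members and -0.03 for all genes of the first fit, and 0.79 for the 10 members and -0.01 for all genes of the second. With 2 samples against 2, the exact 2-sided permutation p of a gene cannot go below 0.333.

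**Figure D1:**
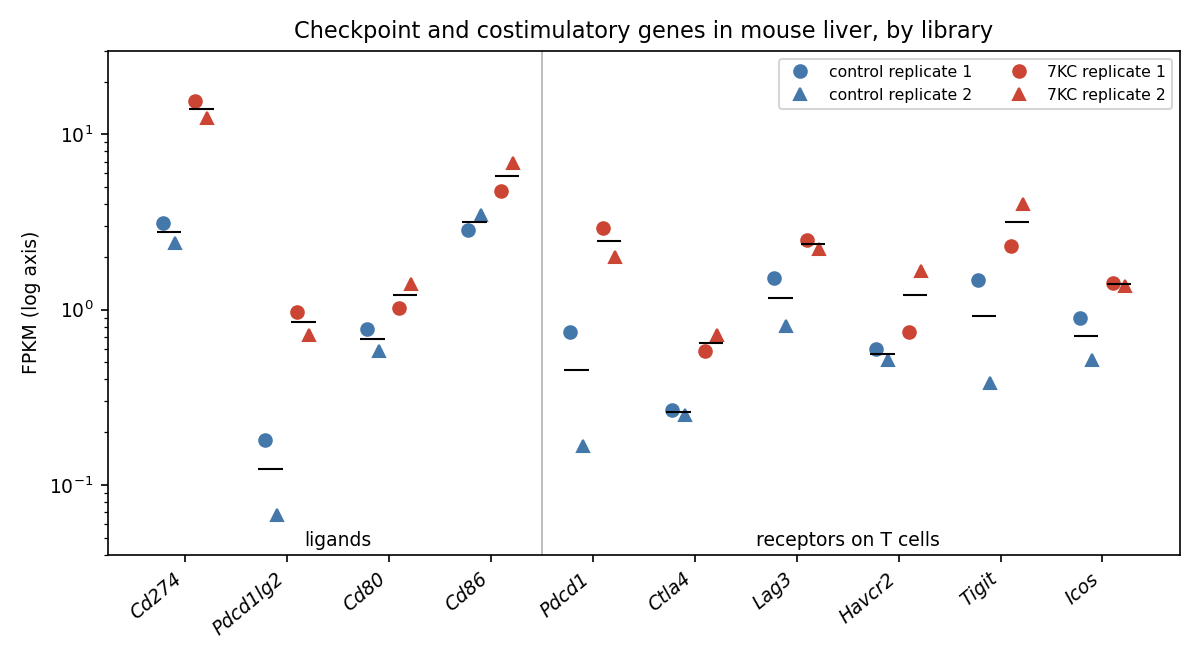
FPKM of the 10 genes on a log axis in each of the 4 samples (blue, control; red, 7KC; circles, replicate 1; triangles, replicate 2), with the group mean as a black line. Both red points lie above both blue points for every gene, and the gap is widest on this axis for Cd274, Pdcd1lg2 and Pdcd1.

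The ligands of PD-1 came first in the order of roles. Cd274 lies on chromosome 19 (29367455 to 29388095, plus strand, mm10) and Pdcd1lg2 lies on the same strand 22.8 kb after its end (29410919 to 29471161). The 250 bases before the annotated RefSeq start site of each gene, and of Pdcd1 (chromosome 1, 94038305 to 94052553, minus strand), are given on GRCm38.p6, the assembly of mm10, because these are the ligands and the receptor of 1 axis and their values moved in the same direction. Havcr2 is shown with them as a member whose window holds a motif. Letters run 5′ to 3′ on the strand of the gene, and capitals mark TGANTCA, an AP-1-like motif in which N is any base.
Cd274, chr19:29367188-29367437, plus strand: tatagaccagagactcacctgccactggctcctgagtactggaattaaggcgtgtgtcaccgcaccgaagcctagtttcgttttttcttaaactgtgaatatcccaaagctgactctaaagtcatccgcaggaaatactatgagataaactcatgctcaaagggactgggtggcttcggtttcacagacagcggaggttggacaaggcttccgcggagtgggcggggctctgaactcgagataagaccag
Pdcd1lg2, chr19:29410669-29410918, plus strand: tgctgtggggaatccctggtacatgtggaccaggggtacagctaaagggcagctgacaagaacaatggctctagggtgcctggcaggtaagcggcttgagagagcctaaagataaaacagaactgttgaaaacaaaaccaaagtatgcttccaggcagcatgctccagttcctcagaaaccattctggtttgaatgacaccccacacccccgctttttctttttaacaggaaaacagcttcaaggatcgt
Pdcd1, chr1:94052554-94052803, minus strand: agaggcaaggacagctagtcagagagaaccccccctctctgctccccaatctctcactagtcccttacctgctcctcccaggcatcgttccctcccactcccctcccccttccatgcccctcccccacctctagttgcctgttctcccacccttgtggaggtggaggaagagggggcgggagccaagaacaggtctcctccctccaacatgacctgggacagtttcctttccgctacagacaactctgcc
Havcr2, chr11:46454681-46454930, plus strand: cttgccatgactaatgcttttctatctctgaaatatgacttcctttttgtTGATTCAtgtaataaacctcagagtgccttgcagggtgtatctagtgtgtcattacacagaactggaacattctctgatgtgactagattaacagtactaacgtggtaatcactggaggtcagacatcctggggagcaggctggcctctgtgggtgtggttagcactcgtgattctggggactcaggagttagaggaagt

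These windows were searched on both strands for 4 motifs, in the 7 members with an entry: Cd274, Pdcd1lg2, Cd80, Pdcd1, Ctla4, Havcr2 and Tigit. The motifs were the gamma-activated sequence TTCNNNGAA of interferon-γ-responsive genes and the interferon-stimulated response element bound by IRF proteins (GAAA, any 2 bases, GAAA). The others were an NF-κB motif (GGG, any 2 bases, TTTCC) and the AP-1-like motif, and no 2 matches overlapped in a member. The first 3 of these motifs were found in 7.02%, 2.98% and 1.41% of all 32851 promoter windows, and in 0 of the 7 member windows. The AP-1-like motif was found in 6.75% of all windows and in 2 of the 7. It started 200 bases before the start site in Havcr2 and 42 bases before it in Cd80. Both matches read TGATTCA, whose middle T is not part of the AP-1 consensus TGA(C/G)TCA. The window of Irf1, searched in the same way, held the gamma-activated sequence. These matches describe letters in a short window only.

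Cd274 was at 3.13 and 2.39 FPKM in the control samples and at 15.5 and 12.4 FPKM in the 7KC samples. The lowest 7KC sample was thus well above the highest control sample, and the replicates of each group were close to each other. The means were 2.76 ± 0.521 and 13.9 ± 2.23 FPKM (SD, n = 2 each), and their ratio was 5.05. Cd274 rose by 2.15 on the log2 scale (SE 0.18, 95% interval 1.69 to 2.60, limma adjusted p 0.0275), more than 99.8% of the genes tested. The size was stable while the call was not: leaving out a single sample kept the log2 difference between 1.98 and 2.31, but the adjusted p was 0.055 when control replicate 2 was left out and 0.152 or 0.173 when 7KC replicate 1 or 2 was. With the replicate number as a block it was 0.148, and without a filter on low values 0.119.

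Pdcd1lg2, whose product PD-L2 is made mainly by dendritic cells and macrophages, was far lower than Cd274. It was at 0.181 and 0.0673 FPKM in the control samples and at 0.973 and 0.719 FPKM in the 7KC samples. The groups did not overlap, and the ratio of the means, 0.124 ± 0.0803 and 0.846 ± 0.180 FPKM (SD, n = 2 each), was 6.81. That ratio leans on very few control reads. On an annotated transcript of 1729 bases the value of control replicate 2 is worth 1.42 reads, although no annotated length made the values whole reads in all 4 samples, and without control replicate 1 the ratio was 12.6. The log2 difference in the fit with the lower filter was 1.11 (SE 0.19, limma adjusted p 0.0838). Relative to Cd274 in the same sample, Pdcd1lg2 stood at 0.0578 and 0.0281 in the control group and at 0.0627 and 0.0581 in the 7KC group, so PD-L1 was the predominant PD-1 ligand transcript in every sample.

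Cd80 and Cd86 encode the B7 ligands shared by CD28 and CTLA-4. Cd86, on the minus strand of chromosome 16 (36603869 to 36666081), was at 2.86 and 3.49 FPKM in the control samples and at 4.73 and 6.90 FPKM in the 7KC samples. Cd80, on the plus strand of the same chromosome (38455561 to 38496335), was at 0.779 and 0.580 FPKM in the control samples and at 1.02 and 1.40 FPKM in the 7KC samples. Neither gene overlapped between groups, but neither passed the threshold. The log2 difference was 0.76 for Cd86 (SE 0.21, 95% interval 0.24 to 1.29, limma adjusted p 0.164) and 0.53 for Cd80 (SE 0.21, interval -0.01 to 1.07, adjusted p 0.285). Behind the Cd80 values stood about 20 and 12 reads in the control samples and 21 and 29 reads in the 7KC samples. Thus 7KC replicate 1 held about the reads of control replicate 1, from a sample estimated as shallower. The level of Cd86 relative to Cd80 was 3.67 and 6.02 in the control samples and 4.63 and 4.91 in the 7KC samples, and these ranges overlapped.

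Among the receptors, Pdcd1 and Tigit had the largest log2 differences and also the largest ratio between their control samples. Pdcd1 was at 0.742 and 0.167 FPKM in the control samples, about 22 and 4 reads, and at 2.91 and 2.01 FPKM in the 7KC samples, about 69 and 48 reads. The exact Poisson 95% interval of 4 reads is 1.09 to 10.2 reads, and it does not reach the 22 reads of control replicate 1. The means were 0.455 ± 0.407 and 2.46 ± 0.637 FPKM (SD, n = 2 each), and the log2 difference was 1.68 (SE 0.35, interval 0.80 to 2.57, limma adjusted p 0.101). Its size depended on the 2 control samples: the ratio of the means was 5.41 with both, 14.7 without control replicate 1 and 3.32 without control replicate 2. Without control replicate 1 it passed (adjusted p 0.0280). Over its 14 alternatives the adjusted p ranged from 0.0280 to 0.397.

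Tigit (chromosome 16, 43648867 to 43664146, minus strand), the receptor of T and NK cells that binds PVR and nectin-2, was at 1.47 and 0.384 FPKM in the control samples and at 2.32 and 4.03 FPKM in the 7KC samples. These were about 18 and 4 reads against 23 and 40. The groups did not overlap, yet control replicate 1 lay nearer to 7KC replicate 1 than to its own replicate. The log2 difference was 1.44 (SE 0.44, interval 0.33 to 2.55, limma adjusted p 0.197), and the ratio of the means, 3.43, became 8.28 when control replicate 1 was left out and 2.16 when control replicate 2 was. Without control replicate 1 it passed (adjusted p 0.0444), within a range of 0.0444 to 0.658 over its alternatives.

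Lag3 (chromosome 6, 124904361 to 124911705, minus strand), a CD4-related receptor of MHC class II, was at 1.52 and 0.803 FPKM in the control samples and at 2.51 and 2.21 FPKM in the 7KC samples. About 47 and 20 reads stood against 62 and 55, and the log2 difference was 0.82 (SE 0.25, interval 0.18 to 1.45, limma adjusted p 0.197), or 0.50 without control replicate 2 and 1.13 without control replicate 1. Icos, on the plus strand of chromosome 1 (60977927 to 61000320), was at 0.895 and 0.520 FPKM in the control samples and at 1.43 and 1.37 FPKM in the 7KC samples, a log2 difference of 0.67 (SE 0.22, interval 0.12 to 1.23, adjusted p 0.218) that was 0.45 without control replicate 2. In both genes the 7KC samples were close together and the control samples were not. Control replicate 2 was the lower control sample in 9 of the 10 members, with Cd86 as the exception, and the lower one for Ptprc.

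Havcr2 (chromosome 11, 46454935 to 46481255, plus strand), which is also expressed by macrophages and dendritic cells, rested on 1 sample. It was at 0.600 and 0.515 FPKM in the control samples and at 0.750 and 1.66 FPKM in the 7KC samples. About 26 and 18 reads stood against 26 and 58, so 7KC replicate 1 held the same number of reads as control replicate 1. The log2 difference of 0.64 (SE 0.30, interval -0.13 to 1.41, limma adjusted p 0.346) was 0.24 without 7KC replicate 2 and 1.03 without 7KC replicate 1. The ratio of the means, 2.16 with all samples, was 1.35 without 7KC replicate 2.

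Ctla4 (chromosome 1, 60887000 to 60915832, plus strand), which lies 62.1 kb before Icos, was the lowest member in the 7KC group. It was at 0.270 and 0.251 FPKM in the control samples and at 0.585 and 0.715 FPKM in the 7KC samples, about 8 and 6 reads against 14 and 17. The replicates of each group were close, and the ratio of the means was 2.50, or 2.25 to 2.75 with a sample left out. In the fit with the lower filter the log2 difference was 0.60 (SE 0.16, limma adjusted p 0.170). Cd28, which encodes the activating receptor for the same ligands, was at 0.254 and 0.333 FPKM and at 0.653 and 0.683 FPKM, so that Ctla4 relative to Cd28 was 1.06 and 0.754 in the control group and 0.896 and 1.05 in the 7KC group.

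**Figure D2:**
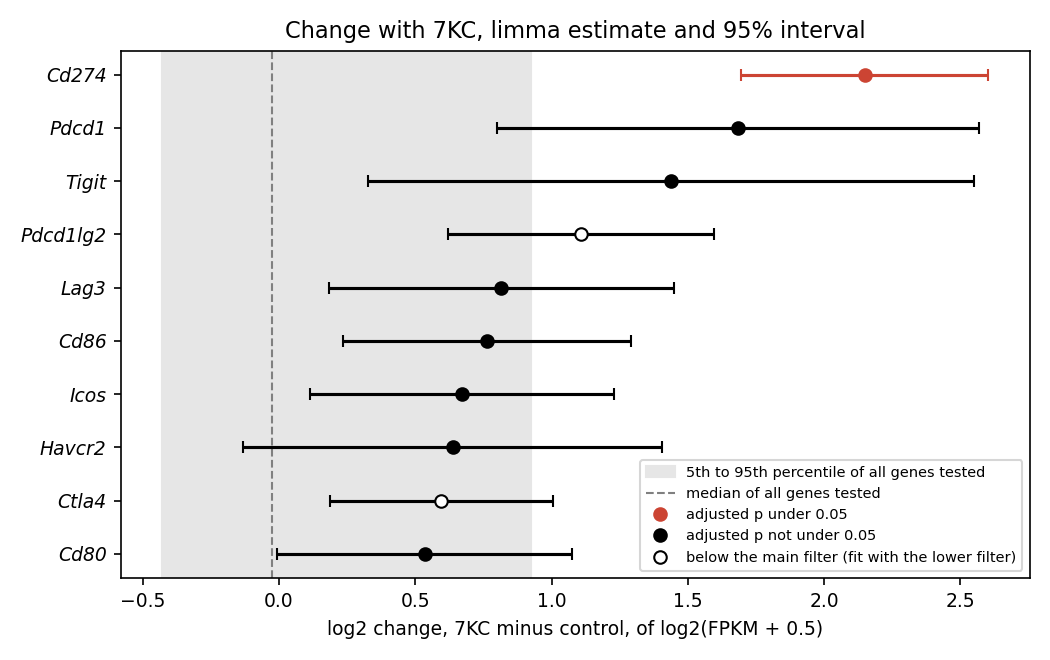
Log2 difference of log2(FPKM + 0.5) between 7KC and control for each gene, with its 95% interval from limma. The grey band spans the 5th to 95th percentile of the genes tested, -0.43 to 0.93; Cd274 (red) lies outside it with its whole interval, and the intervals of Havcr2 and Cd80 include 0.

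The order of the levels differed between the groups. In the control group Cd86 (3.18 FPKM) and Cd274 (2.76 FPKM) were highest and their samples overlapped. From Lag3 (1.16 FPKM) down through Tigit, Icos, Cd80, Havcr2 and Pdcd1 to Ctla4 (0.260 FPKM) each gene overlapped with the next, and Pdcd1lg2 stood below Ctla4. In the 7KC group Cd274 (13.9 FPKM) stood above Cd86 (5.81 FPKM) without overlap, followed by Tigit, Pdcd1 and Lag3, each of which overlapped with the next. Icos (1.40 FPKM), Cd80, Havcr2 and Pdcd1lg2 (0.846 FPKM) likewise overlapped from each to the next, and Ctla4 (0.650 FPKM) was last.

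The members were then set against Ptprc in the same sample, which gives their level relative to 1 leukocyte gene with no test. For Cd274 this is not a level per leukocyte, since PD-L1 is also carried by endothelial cells and hepatocytes. Ptprc itself had a log2 difference of 1.31 (SE 0.23, limma adjusted p 0.0765). Against it, 3 members were higher in both 7KC samples than in both control samples, 3 were lower and 4 overlapped. Among all genes past the lower filter, 2.11% were higher and 87% lower on this scale, so a lower ratio was the usual case. Cd274 relative to Ptprc was 0.369 and 0.423 in the control group and 0.999 and 0.600 in the 7KC group. Pdcd1lg2 was at 0.0213 and 0.0119 against 0.0626 and 0.0349, and Pdcd1 at 0.0876 and 0.0296 against 0.187 and 0.0976. These 3 encode the PD-1 receptor and its ligands. The 3 lower members were Icos, Cd80 and Cd86. Cd80 went from 0.0920 and 0.103 to 0.0659 and 0.0681, and Cd86 from 0.338 and 0.618 to 0.305 and 0.335, as in most genes. For Icos the gap was minimal, with 0.0920 in control replicate 2 and 0.0919 in 7KC replicate 1. It was also small for Cd86, with 0.338 in control replicate 1 and 0.335 in 7KC replicate 2. Among the higher members the gap was narrow for Pdcd1, with 0.0876 in control replicate 1 and 0.0976 in 7KC replicate 2.

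The 6 receptor genes were also set against the mean of Cd3e, Cd3d and Cd3g, which encode chains of the T-cell receptor complex. The receptors are not limited to T cells: Havcr2 is also expressed by macrophages and dendritic cells, and Tigit by NK cells. Pdcd1 relative to this mean was 0.255 and 0.0879 in the control samples and 0.430 and 0.313 in the 7KC samples. Lag3 was at 0.523 and 0.422 against 0.370 and 0.344, and Icos at 0.307 and 0.273 against 0.211 and 0.213. Pdcd1 was therefore higher, Lag3 and Icos were lower, and Ctla4, Havcr2 and Tigit overlapped between groups. Of all genes, 1.54% were higher and 87.9% lower relative to this mean. In control replicate 2 the ratios of Pdcd1 and Tigit rested on 4 reads of each gene.

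**Figure D3:**
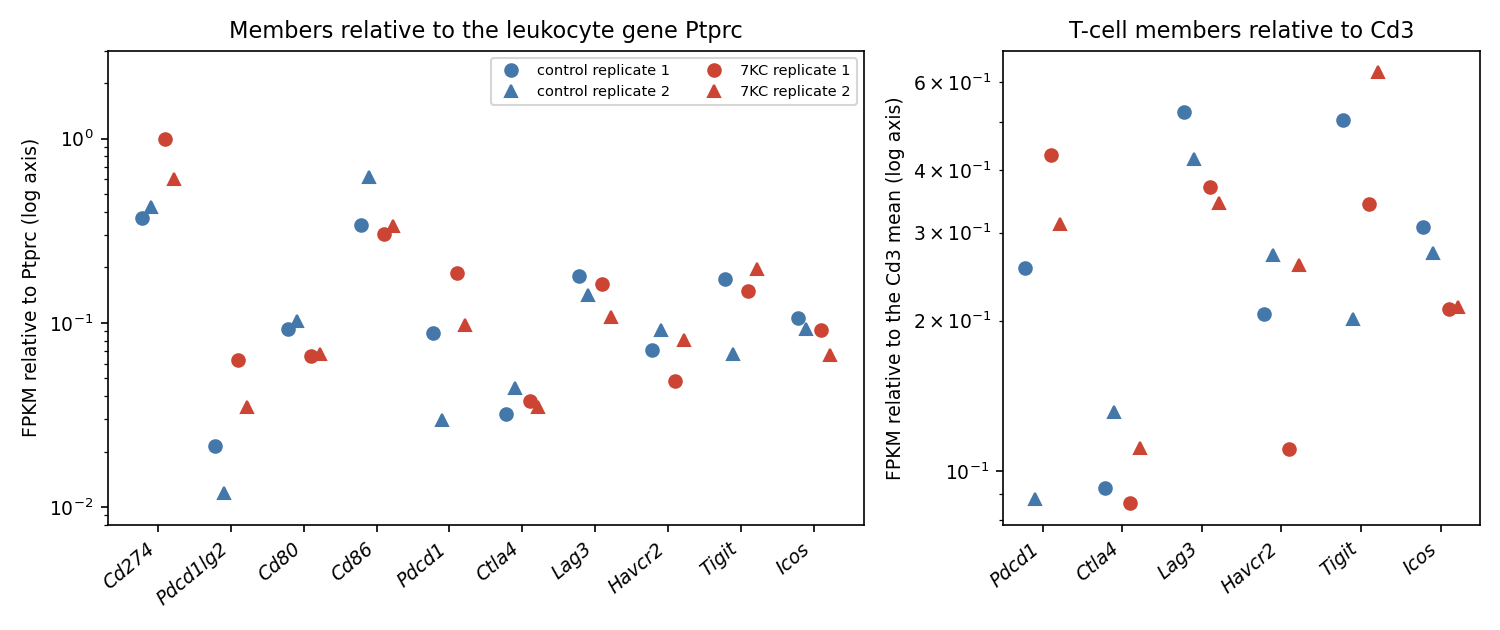
FPKM of each member relative to Ptprc (left) and of the 6 receptors relative to the mean of Cd3e, Cd3d and Cd3g (right), per sample on log axes, with colors and symbols as for the levels. Left, only Cd274, Pdcd1lg2 and Pdcd1 have both red points above both blue points; right, only Pdcd1 does.

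Genes that bind the members or act beside them differed among themselves. Of 15 partners of the members, 14 were tested, 0 passed in either direction over all genes, and the median log2 difference was 0.13. Without overlap, 5 lay higher (9 after rescaling to the same sum) and 2 lower (1 after it). Some of the 5 reached the filter only through their 7KC samples. Of all genes tested, 25.1% lay higher without overlap and 27.4% lower, and 0.48% were called higher and 0.0244% lower. The same shares stand beside the counts of the lists below. The partners with the smallest p were Ptpn6, which encodes the phosphatase SHP-1 that acts below inhibitory receptors, at 22.6 and 18.3 against 39.3 and 43.0 FPKM (limma adjusted p 0.0588), Icosl, the ligand of ICOS, with a log2 difference of 0.90 (SE 0.14, adjusted p 0.0619), and Nectin2, a ligand of TIGIT, with 0.59 (SE 0.13, adjusted p 0.115). Icosl was at 1.67 and 1.56 FPKM in the control samples and at 3.54 and 3.35 FPKM in the 7KC samples, with both groups tight. The hepatocyte-secreted LAG-3 ligand Fgl1 was by far more abundant than its receptor and overlapped between groups, at 582 and 766 FPKM against 510 and 625 FPKM. Lgals9 and Ceacam1, both proposed ligands of TIM-3, were the 2 partners that were lower without overlap. They were named after their values were seen, with log2 differences of -0.29 and -0.40 (adjusted p 0.385 and 0.246).

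Other checkpoint genes of the immunoglobulin superfamily numbered 16, of which 13 were tested. In 11 both 7KC samples lay above both control samples, in 2 below (1 after rescaling to the same sum), 0 passed over all genes, and the median log2 difference was 0.83. Not all of the 11 would have reached the filter by their control samples alone. The smallest p belonged to Pilra, Lair1 and Sirpa, inhibitory receptors of myeloid cells, with log2 differences of 1.04, 1.51 and 1.14 (limma adjusted p 0.0689, 0.0767 and 0.0913). Of these, Lair1 was at 2.66 and 2.01 FPKM in the control samples and at 5.75 and 9.72 FPKM in the 7KC samples. The 2 that were lower, Vsig4 and Cd200, had log2 differences of -0.41 and -0.49 and were named after their values were seen.

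Of 12 genes of TNF-family costimulation 6 were tested, and in all 6 the 7KC samples lay above the control samples, with a median log2 difference of 1.15. Of all genes tested, 25.1% lay so. Some of the 6, such as Tnfrsf4 with a control mean of 0.415 FPKM, reached the filter only through their 7KC samples. Below the filter, not all of the listed genes lay higher without overlap. Cd40, which encodes the receptor through which helper T cells license antigen-presenting cells, was at 2.07 and 0.715 FPKM in the control samples and at 7.65 and 6.82 FPKM in the 7KC samples, a log2 difference of 2.13 (SE 0.36, limma adjusted p 0.0704). Its value was thus about as large as that of Cd274, with 2 times the SE. Tnfrsf4, the gene of the T-cell receptor OX40, had a log2 difference of 1.27 (adjusted p 0.139), and Tnfrsf14, the gene of HVEM, 1.08 (adjusted p 0.145). None passed.

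The interferon-γ pathway, the classical inducer of Cd274, had 1 gene past the threshold among the 12 tested genes listed here. In 10 of them both 7KC samples lay above both control samples, against 25.1% of all genes tested, and the median log2 difference was 0.61. Irf8, which encodes a transcription factor of myeloid and dendritic cells, rose from 10.6 and 8.16 FPKM to 26.8 and 26.2 FPKM, a log2 difference of 1.46 (SE 0.15, limma adjusted p 0.0369). Its call was lost under the same 5 alternatives as that of Cd274 and also without a trend in the prior variance, and over the alternatives its adjusted p ranged from 0.0128 to 0.289. Ifngr2, a chain of the interferon-γ receptor, had a log2 difference of 0.66 (SE 0.10, adjusted p 0.0621). Ciita, the master regulator of MHC class II, just missed the threshold (adjusted p 0.0512), with a log2 difference of 1.58. Irf1 was at 32.6 and 23.1 FPKM against 72.4 and 52.4 FPKM, a log2 difference of 1.15 (adjusted p 0.0965). Ifng itself was at 0.408 and 0.362 FPKM in the control samples and at 2.99 and 1.38 FPKM in the 7KC samples, a log2 difference of 1.53 (SE 0.32, adjusted p 0.104). It reached the filter only through its 7KC samples.

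**Figure D4:**
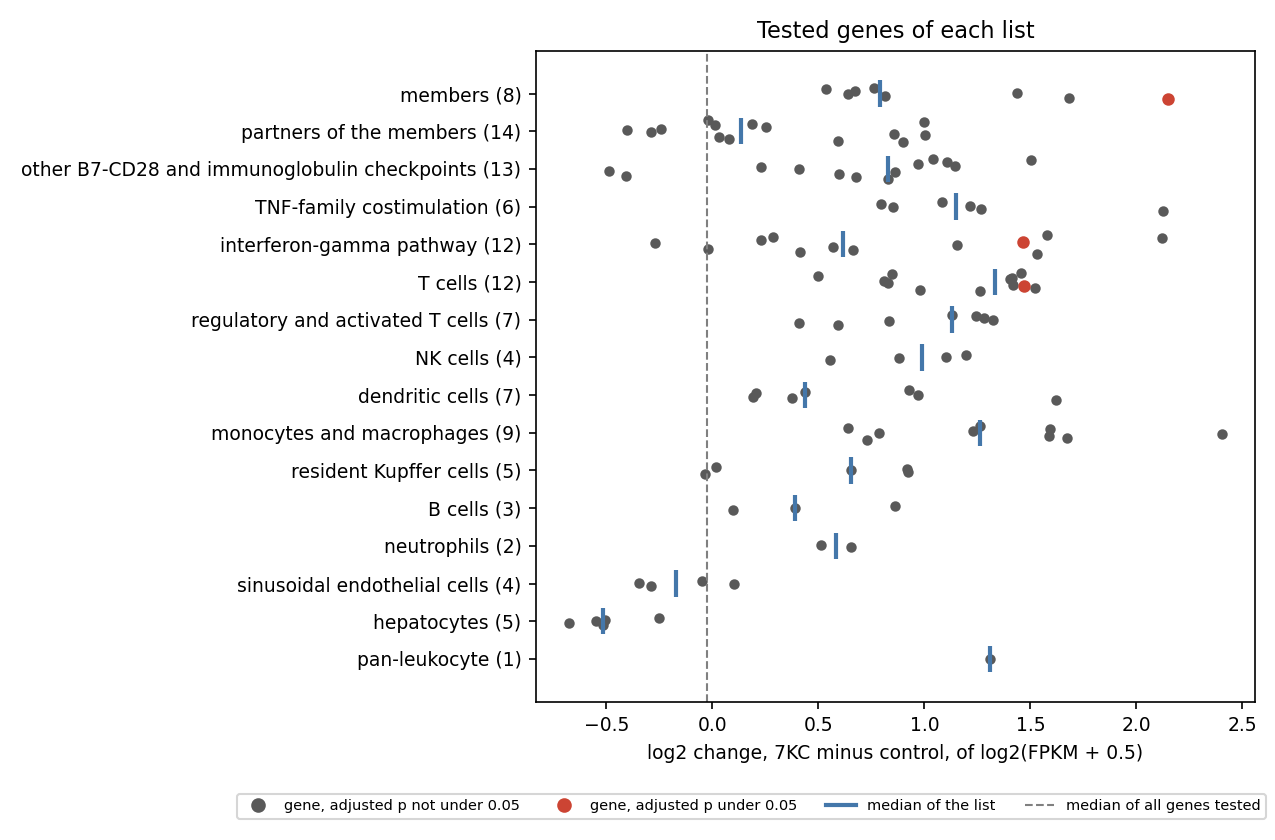
Log2 difference of log2(FPKM + 0.5) between 7KC and control for each tested gene of each list, with the number of tested genes in parentheses, the median of the list as a blue bar and the median of all genes as a dashed line. The 8 tested members have a median of 0.79, between the 0.61 of the interferon-γ pathway and the 1.33 of the T-cell genes, and the hepatocyte genes have -0.52 (-0.11 under quantile normalization).

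Most markers of T cells, NK cells and monocytes were higher with 7KC as well, while those of hepatocytes and sinusoidal endothelial cells were not. The part of these cell types in the result was not tested. Beside the counts of every cell type stand the shares of all genes tested, 25.1% higher and 27.4% lower without overlap. All 12 T-cell genes lay higher without overlap, with summed levels of 15.7 to 22.7 FPKM in the control samples and 48.9 to 52.0 FPKM in the 7KC samples, and 1 of them passed: Cd247, with a log2 difference of 1.47 (limma adjusted p 0.0451). That call was also lost without control replicate 2 and without either 7KC sample, under quantile normalization, with a filter at a mean of 1 FPKM, without a filter and with the replicate block, over a range of 0.0262 to 0.294. Cd3e was at 2.37 and 2.12 FPKM against 6.58 and 5.59 FPKM, with Lat beside it among the smallest p (adjusted p 0.0503 and 0.0512). Of the 7 tested genes of regulatory and activated T cells, 7 lay higher without overlap and 0 passed, with summed levels over all 12 listed of 10.1 to 14.2 FPKM and 27.7 to 31.2 FPKM. Some of the 7 reached the filter only through their 7KC samples. The cytotoxic granule gene Nkg7 had the smallest p there (log2 difference 1.32, adjusted p 0.0523), followed by Cxcr6 (1.13, adjusted p 0.0606) and Gzmb (1.28, adjusted p 0.172). The tested genes included none of the regulatory T-cell markers Foxp3, Il2ra and Ikzf2, which were all below the filter and overlapped between groups. Foxp3 was at 0.200 and 0.0620 FPKM against 0.125 and 0.434 FPKM. All 4 tested NK-cell genes lay higher without overlap, with sums of 3.68 to 4.64 and 9.30 to 13.1 FPKM over the 6 listed. Not all of the 4 would have reached the filter by their control samples alone. The log2 differences were 1.10 for Klrk1, 0.88 for Klrd1 and 1.20 for Gzma (limma adjusted p 0.0596, 0.159 and 0.224).

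Among antigen-presenting cells, 7 of 9 monocyte and macrophage genes lay higher without overlap, with summed levels of 417 to 649 FPKM and 1191 to 1877 FPKM, most of it from Lyz2. Ly6c2, which marks inflammatory monocytes, had a log2 difference of 2.40 (SE 0.32, limma adjusted p 0.0523), and the integrin gene Itgam 1.67 (adjusted p 0.0596), with 1.59 for Lyz2 (adjusted p 0.104). Of 7 tested dendritic-cell genes 5 lay higher without overlap, with sums of 8.35 to 14.0 and 21.9 to 24.0 FPKM over the 9 listed, and Clec9a, a marker of cross-presenting dendritic cells, had a log2 difference of 0.97 (adjusted p 0.0606), Itgax 1.62 (adjusted p 0.167) and Batf3 0.93 (adjusted p 0.265). Of 5 Kupffer-cell genes 3 lay higher, with sums of 260 to 263 and 324 to 483 FPKM, with Timd4 at 0.92 (adjusted p 0.0606), Marco at 0.92 (adjusted p 0.0966) and Cd5l at 0.65 (adjusted p 0.326), while Clec4f and Folr2 overlapped. Summed levels overlapped between groups for B cells (2.26 to 6.68 and 6.40 to 6.41 FPKM) and sinusoidal endothelial cells (75.2 to 92.0 and 69.1 to 100.1 FPKM), and were narrowly apart for neutrophils (15.7 to 28.9 and 29.9 to 33.6 FPKM). The B-cell genes Cd79b, Cd79a and Ms4a1 had log2 differences of 0.86, 0.39 and 0.10, the neutrophil genes S100a9 and S100a8 0.51 and 0.66, and the endothelial genes Lyve1, Stab2 and Clec4g -0.35, -0.29 and 0.10 (adjusted p 0.218 to 0.910). No marker of these lists was listed at 0 in any sample. In 4 of 5 hepatocyte genes (2 of 5 after rescaling to the same sum) both 7KC samples lay below both control samples, with sums of 53134 to 63043 and 33247 to 44977 FPKM. Apoa1, Ttr and Hnf4a had log2 differences of -0.68, -0.55 and -0.25 (adjusted p 0.304, 0.345 and 0.321), and the median of the 5 genes, -0.52, was -0.31 after rescaling to the same sum and -0.11 under quantile normalization.

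The genes most like Cd274 were sought over the 4 samples by the root mean square distance between profiles of log2(FPKM + 0.5), each centred on its own mean. Among 12298 genes the nearest were Zbp1 (0.06), Wfdc3 (0.06), Procr (0.10), Ly6a (0.11) and Apol10b (0.13). Zbp1, a sensor of nucleic acids, was at 10.4 and 8.01 FPKM in the control samples and at 51.5 and 41.2 FPKM in the 7KC samples. Wfdc3 was at 0.0956 and 0 FPKM in the control samples and at 2.03 and 1.78 FPKM in the 7KC samples. Its small distance thus depends on the 0.5 FPKM added to every value. Of the tested members Pdcd1 was nearest to Cd274, at rank 54 (0.31), and Havcr2 farthest, at rank 1382 (0.85). The profile averaged over the 8 tested members was closest to Gpsm3, Kif22, Mmp7, Abcc5 and Tagap, at distances of 0.03 to 0.04. With 4 samples such likeness is a description, since many genes share a profile of this shape.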

How the data were processed

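Liver RNA of 4 samples was analysed, with groups taken from the sample titles. FPKM was deposited by the authors, 1 value per gene symbol and sample. Libraries were made with a stranded messenger RNA kit, per the labels. Per the methods, 75-base single-end reads were mapped to mm10 with TopHat and Bowtie2, and FPKM was calculated with Cufflinks. The submitters' processing notes name TopHat2 2.1.1, Bowtie2 2.2.8, SAMtools 0.1.18 and Cuffdiff 2.2.1, and the methods name other versions. The annotation and the handling of multi-mapped reads are not given in the sources used here. Where FPKM is scaled to all mapped reads of a sample, abundant genes move every other value.

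The values, as log2(FPKM + 0.5), entered lmFit and eBayes (with a trend) of limma 3.58.1, run in R 4.3.3, with the group as the only term and a filter of 0.5 FPKM on the mean of a gene, with Benjamini-Hochberg adjustment over all genes kept. The residual degrees of freedom were 2 and those of the prior 3.27. The fit was tested on simulated data. Depth was recovered from transcripts of GENCODE M21 less 200 bases: 72.3% to 75.2% of low values then came within 0.1 of a whole number of reads, where chance gives 20%. Except for Pdcd1lg2, reads are given only where an annotated length made all 4 values whole within 0.25, and their intervals cover counting error only. That length was picked for its fit among the annotated transcripts, so whole values are no independent check of the reads. Of 127 names in the other lists, 126 were matched, 4 through an older symbol. One listed gene is not reported here. Members and lists were chosen with earlier results of these data known. Named are all members, the 3 genes of each list with the smallest p, those past the threshold, and Cd28, Icosl, Fgl1, Ifng, Irf1, Foxp3, Cd3e and Ptprc. Alternatives covered the pseudocount, filter, scaling, variance model, replicate block and each sample left out.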

Additional observations from a re-analysis of the deposited data

How the results depend on the processing

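All members tested kept a positive log2 change under every alternative, and 7KC values stood above control values without overlap for 6 to 10 of the members tested, as the filter kept 6 to 10 of them. The calls were less stable. The 59 genes called higher and 3 called lower became 111 higher with a pseudocount of 1 FPKM, while rescaling to the same sum gave 398 and 7, no trend in the prior variance 39 and 1, and no filter 0 and 1 (limma, 1792 higher at an unadjusted p under 0.05). Leaving out a sample gave 2 to 389 higher and 1 to 52 lower. The count of members called higher, 1 with all samples, was then 0 to 3. Without a filter it was 0, with 9 of 10 members at an unadjusted p under 0.05 in limma. Of the 16858 genes then tested, 1792 were higher at that p and 842 lower. Rescaling to the same sum moved the median log2 change of all genes from -0.03 to 0.16.

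With the replicate number as a block, limma called 0 of 12299 genes higher, 0 lower and 0 of the 8 tested members higher. At an unadjusted p under 0.05 these counts were 1269, 582 and 6. The labels do not say that a number marks shared mice or days, and same-numbered samples deviated with a correlation of -0.14 across genes, so the block was not used for the results. A crossed pairing, added after seeing the data, gave 551 higher and 37 lower.

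At this depth the control values of Pdcd1, Tigit, Ctla4 and Pdcd1lg2 rest on few reads, and the ratios of Pdcd1, Tigit and Pdcd1lg2 moved most when control replicate 1 was left out.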
